A study of Rattus norvegicus with 15 samples.

Results

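The genes described here are 7 genes of peroxisomal fatty acid oxidation and of the fasting response driven by PPAR-alpha: Ehhadh, Acaa1a, Acaa1b, Hsd17b4, Pdk4, Acot1 and Ppara. They were read on Agilent whole rat genome arrays by every noncontrol probe that carries 1 of these gene names, which gave 9 of the 41012 probes, since Acaa1a and Pdk4 have 2 probes each. Each probe was kept apart. All 9 were well above background on all 15 arrays, so no member was lost to the filter on dim probes, which 27892 probes passed.

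Intestinal RNA came from 15 male rats on standard chow, each on an array of its own, in 3 groups of 5. The Goto-Kakizaki (GK) strain, bred from Wistar rats, becomes diabetic without obesity. GK-S-30 rats, the RYGB group, were GK rats with Roux-en-Y gastric bypass (RYGB) and a Roux limb (RL) of 30 cm, and the tissue was a 5-cm piece of RL taken 5 cm from its junction with the stomach. GK-Sham-PF rats, the sham group, were GK rats that were sham-operated (the bowel was opened and rejoined 16 cm from the ligament of Treitz) and pair-fed. Wistar rats were nondiabetic and not operated on. In both of these groups the tissue was cut 21 to 26 cm below that ligament. GK rats entered the study at 16 wk old, and tissue of all groups was taken after an overnight fast, 14 wk postoperation for the GK groups. The comparison of the RYGB with the sham group addresses the effect of RYGB in diabetic rats, and that of GK-Sham-PF with Wistar rats addresses diabetes. Strain, sham operation and pair feeding differ together in the latter and cannot be told apart.

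Peroxisomes shorten very-long-chain and branched fatty acids by a cycle of oxidation, hydration, dehydrogenation and thiolytic cleavage, and hand the shortened acyl-CoA to mitochondria. Ppara encodes the nuclear receptor PPAR-alpha, which pairs with an RXR receptor, senses fatty acids and switches on peroxisomal and mitochondrial oxidation during fasting, in the intestinal epithelium as well as in the liver. Ketogenesis, the making of ketone bodies from acetyl-CoA in mitochondria, is switched on by the same receptor; none of the 7 genes encodes a ketogenic enzyme, so that pathway is described from a list of its own.

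The probe sequences decide which transcripts are counted, and 2 probes of 60 bases are shown because their annotation differs from that of the other probe of the same gene. The deposited annotation assigns the first to the RefSeq transcripts of both Acaa1a and Acaa1b, the genes of the 2 rat peroxisomal 3-ketoacyl-CoA thiolases, and it is called the shared probe below. The second covers 1889 bases of the genome with 60 bases of probe, so that it crosses at least 1 intron, and is called the spanning probe of Pdk4.
Acaa1a shared probe: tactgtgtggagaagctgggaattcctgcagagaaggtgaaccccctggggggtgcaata
Pdk4 spanning probe: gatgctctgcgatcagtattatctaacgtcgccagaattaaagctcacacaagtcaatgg
By the deposited annotation (rn4) the shared probe lies at chr8:124313119-124313178 on the plus strand. The other Acaa1a probe, which is annotated to Acaa1a alone and called its own probe, lies downstream at chr8:124313801-124313860. The Acaa1b probe lies on the minus strand of the same chromosome at chr8:124110127-124110186. The spanning probe of Pdk4 lies at chr4:30239150-30241038 on the minus strand, and the other Pdk4 probe, the downstream probe, at chr4:30233848-30233907. The annotation assigns the spanning probe to a RefSeq transcript, whereas the downstream probe carries the name Pdk4 without a RefSeq transcript. Ehhadh was read at chr11:81506762-81506821, Hsd17b4 at chr18:45228635-45231409 across 2775 bases, Ppara at chr7:123807016-123807075 and Acot1 at chr6:108049691-108049750, all on the plus strand. Exon and UTR positions of the probes were not analysed here.

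The 2 thiolase genes lie on opposite strands of chromosome 8 and differed in their values, so their promoters are shown too. Each window is 300 bases around the start given by RefSeq (GRCr8). Capitals mark GGGCGG, the core of a GC box, and ATTGG, which is CCAAT read on the opposite strand. The window of Acaa1a lies at chr8:127957231-127957530 on the plus strand and that of Acaa1b at chr8:127759520-127759819 on the minus strand. The start used for Acaa1a lies 1355 bases inside the outer end of its RefSeq gene, and that used for Acaa1b 20 bases inside, so that other starts of Acaa1a may lie upstream of the letters shown.
Acaa1a promoter: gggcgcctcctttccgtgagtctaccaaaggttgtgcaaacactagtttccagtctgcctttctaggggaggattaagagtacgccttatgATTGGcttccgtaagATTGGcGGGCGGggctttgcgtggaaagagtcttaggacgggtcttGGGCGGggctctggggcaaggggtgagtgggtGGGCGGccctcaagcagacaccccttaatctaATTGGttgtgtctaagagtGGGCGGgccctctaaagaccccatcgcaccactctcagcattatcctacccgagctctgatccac
Acaa1b promoter: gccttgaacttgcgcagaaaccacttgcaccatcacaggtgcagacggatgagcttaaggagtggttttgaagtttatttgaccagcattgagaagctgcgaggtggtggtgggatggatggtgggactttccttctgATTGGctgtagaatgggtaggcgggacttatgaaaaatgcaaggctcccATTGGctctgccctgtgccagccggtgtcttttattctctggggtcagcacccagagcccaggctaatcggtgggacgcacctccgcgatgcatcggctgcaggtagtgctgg
The Acaa1a window held 4 matches of GGGCGG and 3 of CCAAT, and the Acaa1b window none of GGGCGG and 2 of CCAAT, with both strands searched. Among the 33469 rat promoter windows of the same table, 33.1% held GGGCGG and 37.5% held CCAAT. The half-site bound by PPAR-alpha and other nuclear receptors, AGGTCA, was found in 16.2% of windows and, among the 7 genes, in that of Hsd17b4. An exact direct repeat of it with 1 base between, on either strand, was found in 0.0538% of windows and in none of the 7. A match is only a match of letters, and a missing match says nothing of sites outside the window.

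In GK-S-30 rats all 9 probes had a lower mean than in GK-Sham-PF rats, by between 0.25 and 1.37 on the log2 scale (a log2 difference of 1 is a doubling). Acaa1b fell by 1.18, to a level 2.26-fold lower, and was the 1 probe that passed the test, at an adjusted p under 0.05 in limma over all probes tested. In the same comparison 6.70% of all tested probes passed, 2.80% in the lower direction, and 54.4% had a lower mean. Against Wistar rats the GK-S-30 means were lower at all 9 probes and 5 passed, those of Ehhadh, Ppara, Acaa1b and both probes of Acaa1a, where 22.8% of all probes passed, 11.8% in the lower direction, and 53.1% had a lower mean. From Wistar to GK-Sham-PF rats, 6 means were lower and 3 higher, and Ehhadh and the own probe of Acaa1a passed, both lower, against 7.83% of all probes, 4.22% in the lower direction, and 50.2% with a lower mean. The comparisons share groups and are not independent of each other. With array slide as a fixed term in the model all 8 differences kept their direction and none passed, with SEs of 0.18 to 0.60 in place of 0.09 to 0.27. Against Wistar rats Acaa1b was then -2.44 (adjusted p = 0.0712) and Ppara -1.62 (adjusted p = 0.0614).

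**Figure D1:**
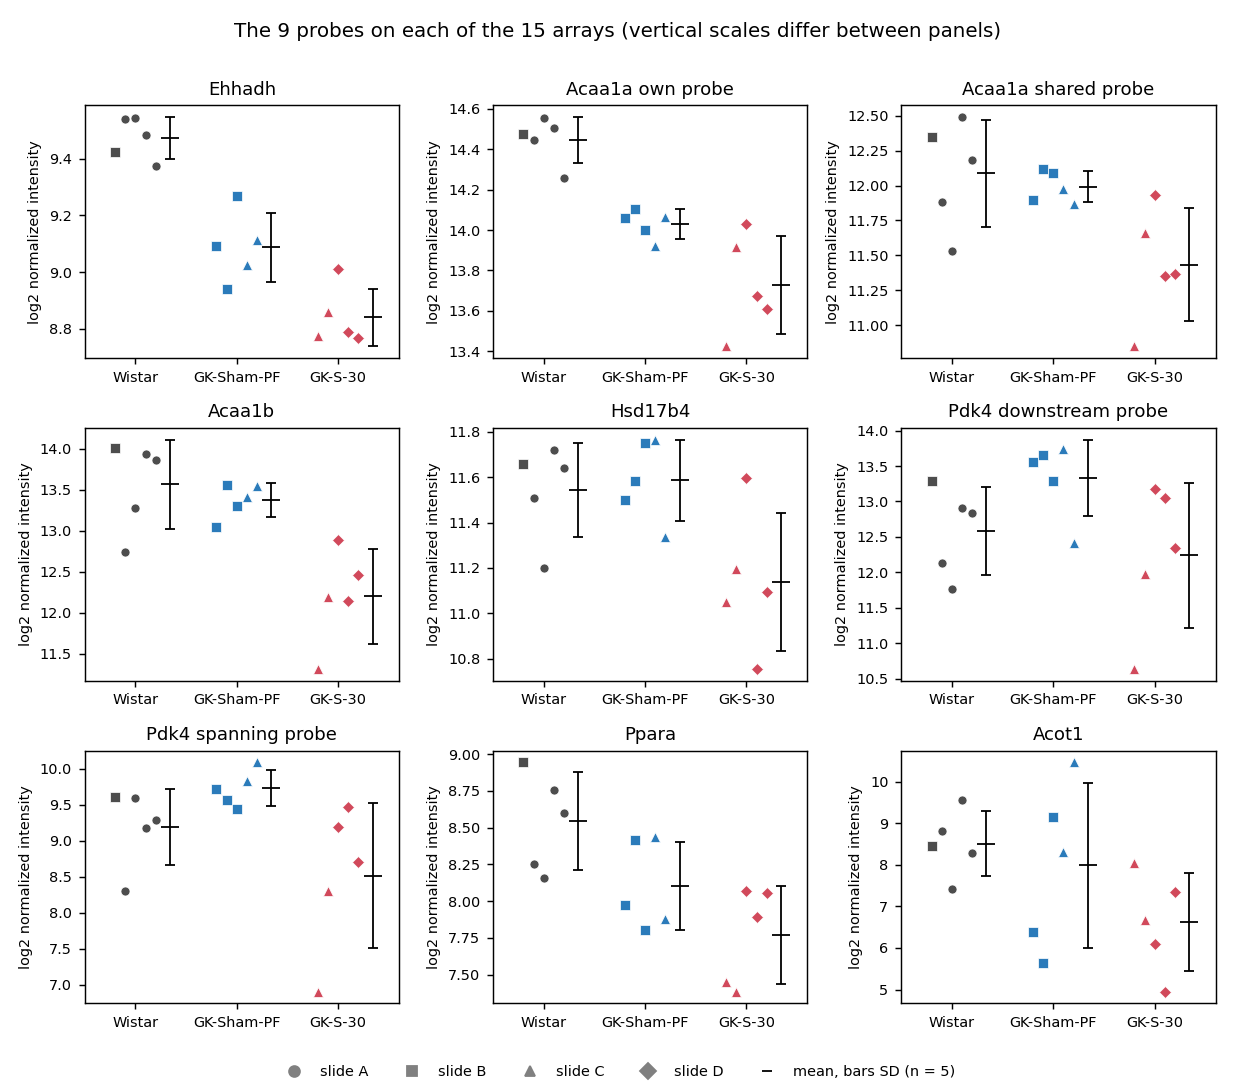
Log2 quantile-normalized intensity of the 9 probes on each array, in 1 panel per probe with its own vertical scale. Points are rats, point shapes are array slides and bars are the group mean and SD of 5 rats. Ehhadh steps down from Wistar to GK-Sham-PF rats with no overlap, Acaa1b is lower in all GK-S-30 rats than in any GK-Sham-PF rat, and Acot1 spreads widely within each group.

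Tissue and array facts bear on every value. The bowel wall was taken whole, and in such RNA fewer cells of a type and less RNA per cell cannot be told apart. Markers of enterocytes, the absorptive cells of the epithelium, were bright, and their mean over 15 genes was 15.29 to 15.83 in GK-S-30, 15.49 to 15.99 in GK-Sham-PF and 15.46 to 15.99 in Wistar rats. Between the RYGB and sham groups 1 of them (Mttp) was lower and none was higher past the test. Passed or not, 12 of the 15 had a lower mean in the RYGB group and 3 a higher one. Smooth muscle markers moved with the operation, since 6 of 9 rose from the sham to the RYGB group and none fell. Their mean was 12.69 to 13.04 in GK-S-30 rats, against 11.07 to 12.26 in GK-Sham-PF and 11.33 to 12.04 in Wistar rats, with no overlap. In the same pair markers of fibroblasts and endothelium were higher at 5 of 9 and those of leukocytes lower at 3 of 9. The part of these shifts in the results below was not tested. The 15 arrays sat on 4 slides that were not balanced over the groups. Slide C held 2 arrays of each GK group, slide B held 3 GK-Sham-PF arrays and 1 Wistar array, and slides A and D held 1 group each, so that GK-S-30 and Wistar rats never shared a slide.

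Ehhadh encodes the peroxisomal bifunctional enzyme, which hydrates and dehydrogenates the acyl chain in the classical, PPAR-alpha-induced branch of the cycle. Its log2 intensity in Wistar rats was 9.42, 9.54, 9.54, 9.48 and 9.37. The GK-Sham-PF rats had 9.09, 8.94, 9.27, 9.02 and 9.11. The GK-S-30 rats had 8.77, 8.86, 9.01, 8.79 and 8.77. Every GK rat was below every Wistar rat, whereas the 2 GK groups overlapped. Of all probes, 4.68% had all GK-Sham-PF rats below all Wistar rats, and 9.24% had all GK-S-30 rats below them. The step from Wistar to GK-Sham-PF rats was a fall of 0.38 (SE 0.09, adjusted p = 0.0105), which within slide B, with 1 Wistar array, was 0.32. From Wistar to GK-S-30 rats Ehhadh fell by 0.63 (adjusted p = 9.04e-05), a level 1.55-fold lower. The difference between the GK groups was -0.25 (95% interval -0.43 to -0.06), with an adjusted p of 0.106.

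Hsd17b4 encodes the D-bifunctional protein, the counterpart of Ehhadh for very-long-chain and branched substrates. Wistar rats had 11.66, 11.51, 11.20, 11.72 and 11.64. Values in GK-Sham-PF rats were 11.50, 11.58, 11.75, 11.77 and 11.34, and those in GK-S-30 rats were 11.05, 11.20, 11.60, 10.75 and 11.09. The control groups lay over each other, and 4 of the 5 GK-S-30 rats were below all GK-Sham-PF rats while replicate 3 was among them. GK-S-30 differed from GK-Sham-PF rats by -0.45 (95% interval -0.76 to -0.13, adjusted p = 0.0869) and from Wistar rats by -0.41 (adjusted p = 0.0603). GK-Sham-PF rats differed from Wistar rats by 0.04 (95% interval -0.27 to 0.36). Without GK-S-30 replicate 3 both of the former passed (-0.56, adjusted p = 0.0255, and -0.52, adjusted p = 0.0141), as did the difference from Wistar rats without Wistar replicate 3 (-0.49, adjusted p = 0.0261). Leaving out GK-S-30 replicate 4 instead gave -0.35 from GK-Sham-PF rats (adjusted p = 0.179). Over the fits without 1 array the adjusted p reached 0.179 against GK-Sham-PF and 0.146 against Wistar rats. With slide as a fixed term the difference from GK-Sham-PF rats was -0.43 (adjusted p = 0.451).

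Acaa1a and Acaa1b encode the thiolases that release acetyl-CoA at the end of each turn of the cycle. At its own probe Acaa1a had 14.47, 14.45, 14.55, 14.50 and 14.26 in Wistar rats. The GK-Sham-PF rats had 14.06, 14.11, 14.00, 13.92 and 14.06, and the GK-S-30 rats 13.42, 13.92, 14.03, 13.67 and 13.61. As for Ehhadh, all GK rats were below all Wistar rats and the 2 GK groups overlapped. The shares of all probes below Wistar rats without overlap were 4.68% for GK-Sham-PF and 9.24% for GK-S-30 rats. Acaa1a fell by 0.42 from Wistar to GK-Sham-PF rats (SE 0.11, adjusted p = 0.0305), with the same value of -0.42 within slide B, and by 0.72 from Wistar to GK-S-30 rats (adjusted p = 0.000281). The call in GK-Sham-PF rats was lost when any 1 of Wistar replicates 1 to 4 or GK-Sham-PF replicates 1, 3 and 4 was left out, with adjusted p-values of 0.057 to 0.0785. Between the GK groups the difference was -0.30 (95% interval -0.54 to -0.06, adjusted p = 0.127).

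Acaa1b behaved otherwise. Wistar rats had 14.01, 12.73, 13.28, 13.93 and 13.86, and GK-Sham-PF rats 13.05, 13.56, 13.30, 13.41 and 13.54. The GK-S-30 rats had 11.31, 12.19, 12.89, 12.14 and 12.45. Wistar and GK-Sham-PF rats overlapped over the whole GK-Sham-PF range, and all 5 GK-S-30 rats were below all 5 GK-Sham-PF rats, as were 3.48% of all probes. Acaa1b fell by 1.18 from GK-Sham-PF to GK-S-30 rats (SE 0.27, adjusted p = 0.0187). This call stayed when any 1 of the 15 arrays was left out, with differences between -1.35 and -0.96, the smallest without GK-S-30 replicate 1. It was lost by the Tukey test after Benjamini-Hochberg adjustment (adjusted p = 0.107). Within slide C the difference was -1.73, and with slide as a term in the model, where the estimate rests on those 4 arrays, the adjusted p was 0.0549. Against Wistar rats the fall was 1.37 (adjusted p = 0.00222), with Wistar replicate 2 inside the GK-S-30 range. GK-Sham-PF rats differed from Wistar rats by -0.19 (95% interval -0.77 to 0.39), an interval that includes the -0.42 of Acaa1a at its own probe. Within slide B, with 1 Wistar array, the difference of Acaa1b was -0.71.

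The difference between the 2 thiolases within an array does not depend on the brightness of the array, and it was compared after their values had been seen. Log2 Acaa1b minus log2 Acaa1a at its own probe averaged -1.53 ± 0.41 (SD, n = 5) in GK-S-30, -0.66 ± 0.21 in GK-Sham-PF and -0.88 ± 0.58 in Wistar rats. It was lower in all GK-S-30 rats than in any GK-Sham-PF rat, by 0.88 on average, and Wistar rats overlapped with both groups. Since the pair was chosen for this pattern, the values are a description and have no test.

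The shared probe printed above, which carries the name Acaa1a, gave 12.35, 11.88, 11.53, 12.49 and 12.19 in Wistar rats. The GK-Sham-PF values were 11.90, 12.12, 12.09, 11.98 and 11.87, and the GK-S-30 values 10.85, 11.66, 11.94, 11.35 and 11.37. Wistar and GK-Sham-PF rats overlapped, unlike at the own probe, and 1 GK-S-30 rat lay within the GK-Sham-PF range. Over the 15 arrays its correlation was 0.90 with Acaa1b and 0.73 with the own probe of Acaa1a, and after the group means were removed 0.80 and 0.53. These are descriptions, since all probes of an array share its RNA and labelling. The GK-S-30 difference was -0.56 from GK-Sham-PF rats (adjusted p = 0.107), between those of the 2 genes, and -0.66 from Wistar rats (adjusted p = 0.025). That call was lost when any 1 of Wistar replicates 1, 4 and 5 or GK-S-30 replicates 1 and 5 was left out, with adjusted p-values of 0.0513 to 0.066. How much of each transcript the shared probe binds was not tested.

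**Figure D2:**
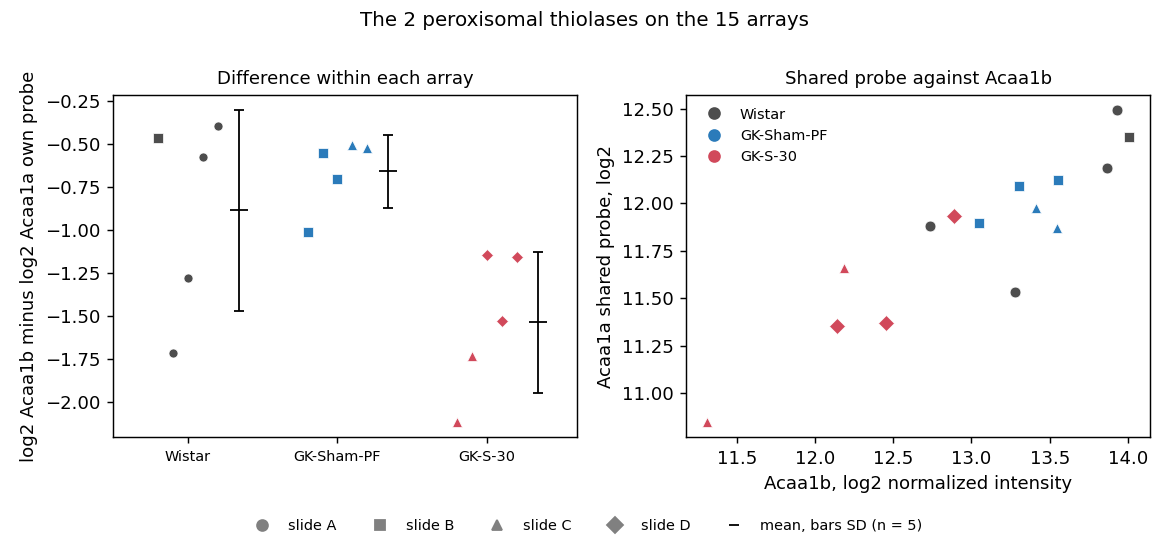
Left, log2 Acaa1b minus log2 Acaa1a at its own probe within each array, with the mean and SD of 5 rats per group. Right, the shared probe against Acaa1b on the 15 arrays, both as log2 normalized intensity, with a correlation of 0.90. The GK-S-30 rats lie below all GK-Sham-PF rats on the left and at the low end on the right.

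Pdk4 encodes pyruvate dehydrogenase kinase 4, which closes the entry of pyruvate into the TCA cycle during fasting and is a standard PPAR-alpha target. At the downstream probe Wistar rats had 13.29, 12.13, 11.77, 12.91 and 12.84. The GK-Sham-PF rats had 13.55, 13.66, 13.29, 13.75 and 12.42, and the GK-S-30 rats 10.63, 11.97, 13.18, 13.06 and 12.35. GK-S-30 replicate 1 was the lowest of all 15 and the groups overlapped. At the spanning probe Wistar rats had 9.61, 8.30, 9.59, 9.17 and 9.29, GK-Sham-PF rats 9.72, 9.57, 9.44, 9.82 and 10.09, and GK-S-30 rats 6.90, 8.31, 9.19, 9.47 and 8.71. Here too replicate 1 was lowest, and only GK-S-30 replicate 4 reached the GK-Sham-PF range.

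The GK-S-30 minus GK-Sham-PF difference of Pdk4 was -1.10 (95% interval -2.01 to -0.18, adjusted p = 0.153) at the downstream probe and -1.21 (95% interval -2.03 to -0.40, adjusted p = 0.0737) at the spanning probe. Without GK-S-30 replicate 1 the differences were -0.69 and -0.81, and without replicate 4 the spanning probe passed (-1.45, adjusted p = 0.0334). Within slide C they were -1.78 and -2.35, and the 3 GK-S-30 arrays of slide D were all above the 2 of slide C at both probes. With slide as a term in the model the spanning probe passed (adjusted p = 0.0259), and the downstream probe did not. GK-Sham-PF rats had the higher mean against Wistar rats at both probes, by 0.75 (adjusted p = 0.393) and 0.54 (adjusted p = 0.521), and GK-S-30 rats differed from Wistar rats by -0.35 and -0.68, neither past the test. The 2 probes correlated at 0.77 over the arrays.

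Acot1 encodes a cytosolic acyl-CoA thioesterase, which frees fatty acids from CoA and is strongly induced by PPAR-alpha agonists in rodents. Wistar rats had 8.46, 8.83, 7.41, 9.57 and 8.29. The GK-Sham-PF rats had 6.38, 5.64, 9.16, 8.32 and 10.47, and the GK-S-30 rats 8.03, 6.67, 6.10, 4.95 and 7.36. The groups overlapped, and the SD within GK-Sham-PF rats was 1.99, the largest of any member in any group. The difference of GK-S-30 from GK-Sham-PF rats was -1.37 (95% interval -3.06 to 0.32, adjusted p = 0.361), and -0.75 without GK-Sham-PF replicate 5. Against Wistar rats it was -1.89 (adjusted p = 0.103). Acot1 lies in a row of related genes on chromosome 6, and binding of their transcripts to its probe was not tested.

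Ppara itself was printed 10 times on each array, and its value is the mean of the 9 or 10 spots that were kept. Wistar rats had 8.95, 8.25, 8.16, 8.76 and 8.60. The GK-Sham-PF rats had 7.97, 8.42, 7.81, 8.44 and 7.88, and the GK-S-30 rats 7.45, 7.38, 8.07, 7.89 and 8.06. All GK-S-30 rats were below all Wistar rats, as were 9.24% of all probes, and GK-Sham-PF rats overlapped with both. The spots of 1 array had SDs of 0.038 to 0.098, against SDs of 0.30 to 0.33 between rats of a group. Ppara fell by 0.77 from Wistar to GK-S-30 rats (SE 0.19, adjusted p = 0.00949), a level 1.71-fold lower, and this call stayed when any 1 array was left out. The differences that make up this fall were -0.44 from Wistar to GK-Sham-PF rats (95% interval -0.85 to -0.03, adjusted p = 0.222) and -0.33 from GK-Sham-PF to GK-S-30 rats (95% interval -0.74 to 0.08, adjusted p = 0.362). Within slide C the latter was -0.74, and the 2 GK-S-30 arrays of that slide, at 7.45 and 7.38, were below the 3 of slide D.

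**Figure D3:**
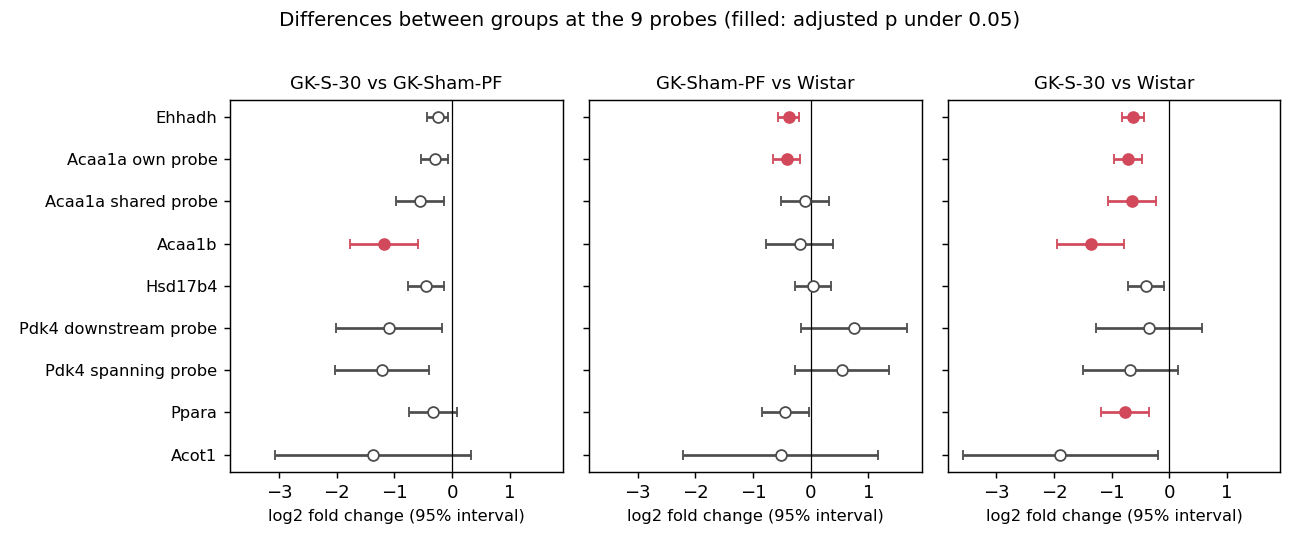
Log2 fold changes of the 9 probes for the 3 pairs of groups, with 95% intervals from limma; filled points passed the adjusted p of 0.05. All points of the RYGB against the sham group lie below 0 and Acaa1b passes; Pdk4 lies above 0 between GK-Sham-PF and Wistar rats with intervals that include 0.

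The 7 genes did not follow 1 pattern over the rats. Ehhadh and the own probe of Acaa1a had a correlation of 0.93 over the 15 arrays and of 0.54 after group means were removed. Among rats of a group, Acaa1b varied with Ppara (0.70) and with Pdk4 (0.70 at the downstream and 0.73 at the spanning probe), and its correlation with Ehhadh was -0.01. Acot1 had correlations between -0.50 and 0.24 with the other probes among rats of a group. These values have no test and rest on 15 arrays. Slide was not removed from them, and the GK-S-30 arrays of slide C were below those of slide D at Ppara and both Pdk4 probes. GK-S-30 replicate 1 was the lowest array at Acaa1b, at both Acaa1a probes and at both Pdk4 probes. It also had the lowest mean of enterocyte markers of the 15 arrays (15.29). The part of slide or of that array in the correlations was not tested.

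The probes of other named genes that were most like each member over the 15 arrays were found by Pearson correlation. The second value in each bracket is the correlation after group means were removed. For Ehhadh they were Slc22a7 (0.97, 0.74), Ccs (0.97, 0.67) and Acot13 (0.96, 0.57), an organic anion transporter, the copper chaperone of superoxide dismutase and a thioesterase. Acaa1a at its own probe was closest to Rdh7 (0.96, 0.83), Pdk2 (0.94, 0.69) and Col24a1 (0.94, 0.64), and Acaa1b to Cyp2b2 (0.96, 0.90), Cyp2b15 (0.95, 0.87) and Cyp2b12 (0.95, 0.88), members of 1 cytochrome P450 family with closely related sequences. Hsd17b4 was closest to Acadl (0.93, 0.87), an acyl-CoA dehydrogenase of mitochondria, Dnah17 (0.93, 0.86) and Slit1 (0.92, 0.85). Pdk4 at its downstream probe was closest to Abcg5 (0.92, 0.90), a sterol transporter, G6pc1 (0.92, 0.94), a catalytic subunit of glucose-6-phosphatase, and Apbb3 (0.92, 0.89). For Ppara they were Cep112 (0.92, 0.85), Wee1 (0.92, 0.88) and Rbbp6 (0.91, 0.82). Acot1 was closest to Acot3 (0.95, 0.94), Acot2 (0.93, 0.94) and Acot5 (0.92, 0.90), which are its neighbours on chromosome 6.

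Genes of the pathway were read from lists, and of 47 calls with the smallest adjusted p in each list and pair, other than the members, 8 stayed with slide as a fixed term. In the list of peroxisomal beta-oxidation, 23 of 25 genes were tested. Of these, 6 were lower in the RYGB than in the sham group past the test and none was higher, with a median difference of -0.30 against -0.03 over all probes. In this pair 2.80% of all probes passed as lower. Acaa1b is 1 of the 6. Among the others were Abcd3, the 70-kDa membrane transporter of the peroxisome (fell by 0.52, adjusted p = 0.00653), Ech1, a dienoyl-CoA isomerase (fell by 0.61, 0.00981), and Hacl1, a lyase of alpha-oxidation (fell by 0.47, 0.0151). The mean of the list did not overlap between the groups, at 9.43 to 9.73 in GK-S-30 and 9.88 to 10.05 in GK-Sham-PF rats, and in Wistar rats it was 9.95 to 10.39.

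Against Wistar rats the same list had 10 genes lower in GK-S-30 rats and none higher, with a median of -0.33. Of all probes 11.8% passed as lower in that pair. After Eci2, a peroxisomal enoyl-CoA isomerase (fell by 1.17, adjusted p = 2.86e-06), came Amacr, the racemase of branched acyl-CoA (fell by 1.54, 4.96e-05), Abcd3 (fell by 0.73, 8.88e-05) and Ehhadh. From Wistar to GK-Sham-PF rats, where 4.22% of all probes passed as lower, 5 genes were lower and none higher, with a median of -0.12. They were Eci2 (fell by 0.78, adjusted p = 0.00026), Amacr (fell by 0.87, 0.0114), Ehhadh and Acaa1a as above, and Slc27a2, a very-long-chain acyl-CoA synthetase (fell by 3.17, 0.0352, lost in 7 of 15 fits without 1 array). Slc27a2 ranged from 6.24 to 11.87 in Wistar, 5.64 to 7.08 in GK-Sham-PF and 4.22 to 5.36 in GK-S-30 rats. Its spread among Wistar rats was wide, and from Wistar to GK-S-30 rats it fell by 4.82 (SE 0.87, adjusted p = 0.000991). Under the alternatives run this difference lay between -6.54 and -3.19, and the call was lost in 1 of them. In the list of peroxisome biogenesis, all 19 genes were tested, with medians of -0.07, 0.02 and -0.03 in the 3 pairs. From GK-Sham-PF to GK-S-30 rats 2 passed, both lower. Pxmp2, a membrane channel, fell by 0.37 (adjusted p = 0.0405), a call that was lost in 12 of the 15 fits without 1 array (adjusted p up to 0.0919). None passed from Wistar to GK-Sham-PF rats in limma, and 5 fell from Wistar to GK-S-30 rats, among them Pex10 (fell by 0.53, adjusted p = 0.00139), catalase (Cat, fell by 0.49, 0.00448) and Pex11g (fell by 0.55, 0.0156). Over all probes 2.80% passed as lower between the GK groups and 11.8% from Wistar to GK-S-30 rats.

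In the list of PPAR-alpha targets, which holds Ehhadh, Acaa1b, Acot1 and Pdk4, 38 of 40 genes were tested. From GK-Sham-PF to GK-S-30 rats 10 fell and 1 rose, the median was -0.42, and 36 of the 38 differences were below 0. Over all probes 2.80% passed as lower in this pair and 54.4% had a lower mean. Without the 4 members 9 fell and 1 rose, of 34. The gene that rose was Acsl1, a long-chain acyl-CoA synthetase (0.71, adjusted p = 0.00151). Cyp4a1, a fatty acid omega-hydroxylase, fell by 0.99 (adjusted p = 0.00718), Ech1 fell as given above, and Hadha, a subunit of the mitochondrial trifunctional protein, fell by 0.53 (0.0126). Against Wistar rats 15 fell in GK-S-30 rats and 1 rose, with a median of -0.36, where 11.8% of all probes passed as lower. The 15 were led by Ehhadh, Decr1, a dienoyl-CoA reductase (fell by 1.17, adjusted p = 0.000565), Cyp4a1 (fell by 1.13, 0.000697) and Slc27a2. From Wistar to GK-Sham-PF rats the median was 0.01, with Ehhadh and Slc27a2 lower and Cidea, a protein of lipid droplets, higher (0.77, adjusted p = 0.0105). Of 5 tested markers of fat cells, 4 had a higher mean and 1 a lower one in that pair. Their median was 0.81 and none passed. The part of fat cells in the value of Cidea was not tested. Smooth muscle markers rose in the comparison with GK-Sham-PF rats as given above, by a median of 1.21. The 15 enterocyte genes had a median of -0.05, with 12 below 0 and 3 above. Fabp1 and Fabp2 are in both the enterocyte list and the list of PPAR-alpha targets.

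**Figure D4:**
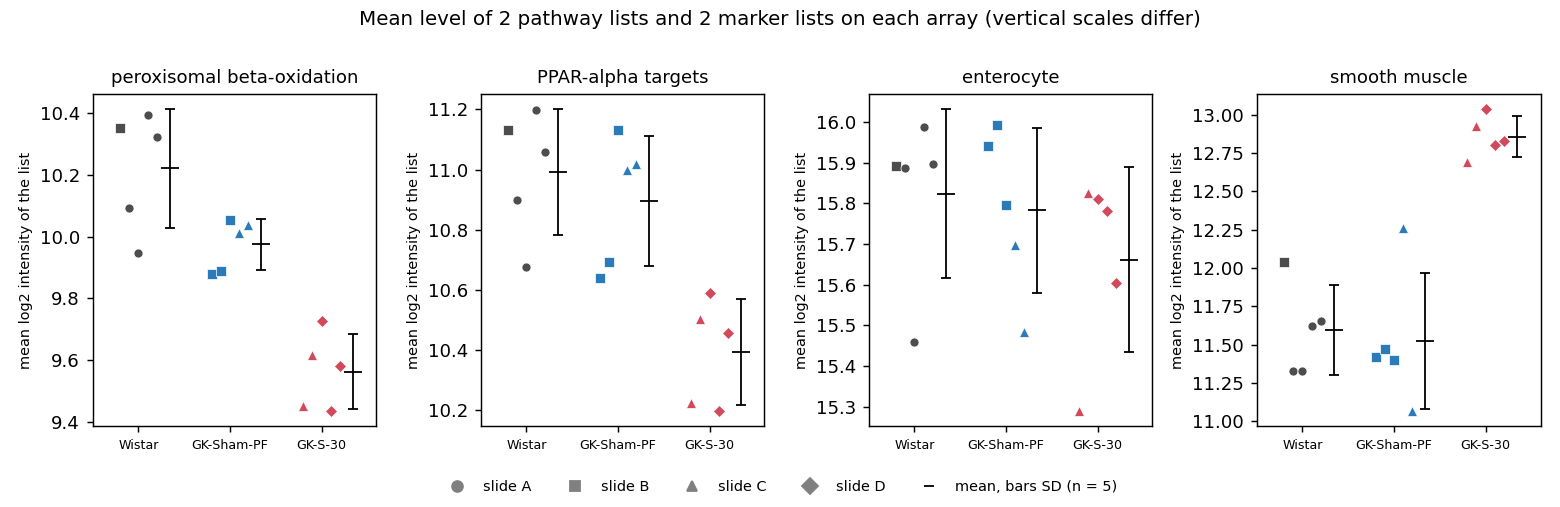
Mean log2 normalized intensity of 2 pathway lists and 2 marker lists on each array, with group mean and SD (n = 5) and array slides as point shapes. GK-S-30 rats are below the GK-Sham-PF rats in both pathway lists (9.43 to 9.73 against 9.88 to 10.05 for peroxisomal beta-oxidation) and above them for smooth muscle (12.69 to 13.04 against 11.07 to 12.26), and enterocyte markers overlap.

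The list of ketogenesis and ketone use had 8 of 9 genes tested and medians of 0.22, 0.05 and 0.11 in the 3 pairs. In these pairs 1, 1 and 2 genes passed as higher and 0, 1 and 2 as lower, and not every gene counted is named here. Over all probes 6.70%, 7.83% and 22.8% passed in either direction. Oxct1, which activates ketone bodies for use, rose from the sham to the RYGB group by 0.70 (adjusted p = 0.0277, lost in 7 of 15 fits without 1 array) and was above Wistar rats by 0.81 (0.00387). Bdh1, which interconverts the 2 main ketone bodies, was lower in both GK groups, by 1.65 in GK-Sham-PF rats (8.54 to 9.18 against 10.29 to 10.57 in Wistar rats, with no overlap, adjusted p = 2.1e-07) and by 1.38 in GK-S-30 rats (1.27e-06). Slc16a6, a transporter of ketone bodies, was higher than in Wistar rats by 1.21 in GK-Sham-PF (adjusted p = 0.00556) and by 1.38 in GK-S-30 rats (0.000978).

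Among pyruvate dehydrogenase subunits, kinases and phosphatases, all 12 genes were tested. The kinases other than Pdk4 parted ways between the GK groups. Pdk1 rose from the sham to the RYGB group by 0.44 (adjusted p = 0.00997) and Pdk3 by 0.71 (0.027), whereas Pdk2 fell by 0.66 (0.0388). Without 1 array the call of Pdk3 was lost in 6 of 15 fits and that of Pdk2 in 8. Pdk2 also fell by 0.82 from Wistar to GK-Sham-PF rats (adjusted p = 0.00827) and by 1.48 from Wistar to GK-S-30 rats (2.93e-05), and Pdk1 fell by 0.50 from Wistar to GK-Sham-PF rats (0.00214). Pdk3 (0.59, adjusted p = 0.0258) and Dlat, a subunit of the dehydrogenase (0.35, 0.0482), passed as higher in GK-S-30 rats against Wistar rats, but the call of Dlat was lost in 12 of the 15 fits without 1 array (adjusted p up to 0.11) and that of Pdk3 in 5.

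Of the receptors and partners of the PPAR family, 16 of 17 were tested, and the other PPAR genes did not pass in any pair. Ppard, the delta receptor, differed by -0.15 (adjusted p = 0.625) and Pparg, the gamma receptor of fat cells, by 0.48 (0.133) between the RYGB and sham groups. Lpin1, a phosphatase that also works as a coactivator of PPAR-alpha, rose from the sham to the RYGB group by 0.65 (adjusted p = 0.00417) and was above Wistar rats by 0.75 (0.000313). The corepressor gene Nrip1 fell by 0.56 from Wistar to GK-Sham-PF rats (adjusted p = 0.0054) and by 0.64 from Wistar to GK-S-30 rats (0.000834), and Nr1h3, the LXR-alpha receptor, fell by 0.57 in the latter pair (0.0161). Of 12 acyl-CoA thioesterase genes 9 were tested, with no call in limma between the GK groups. Acot5 and Acot13 fell from Wistar to GK-Sham-PF rats by 0.67 (adjusted p = 0.000594) and 0.47 (0.00092) and from Wistar to GK-S-30 rats by 0.67 (0.000317) and 0.70 (1.05e-05).

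**Figure D5:**
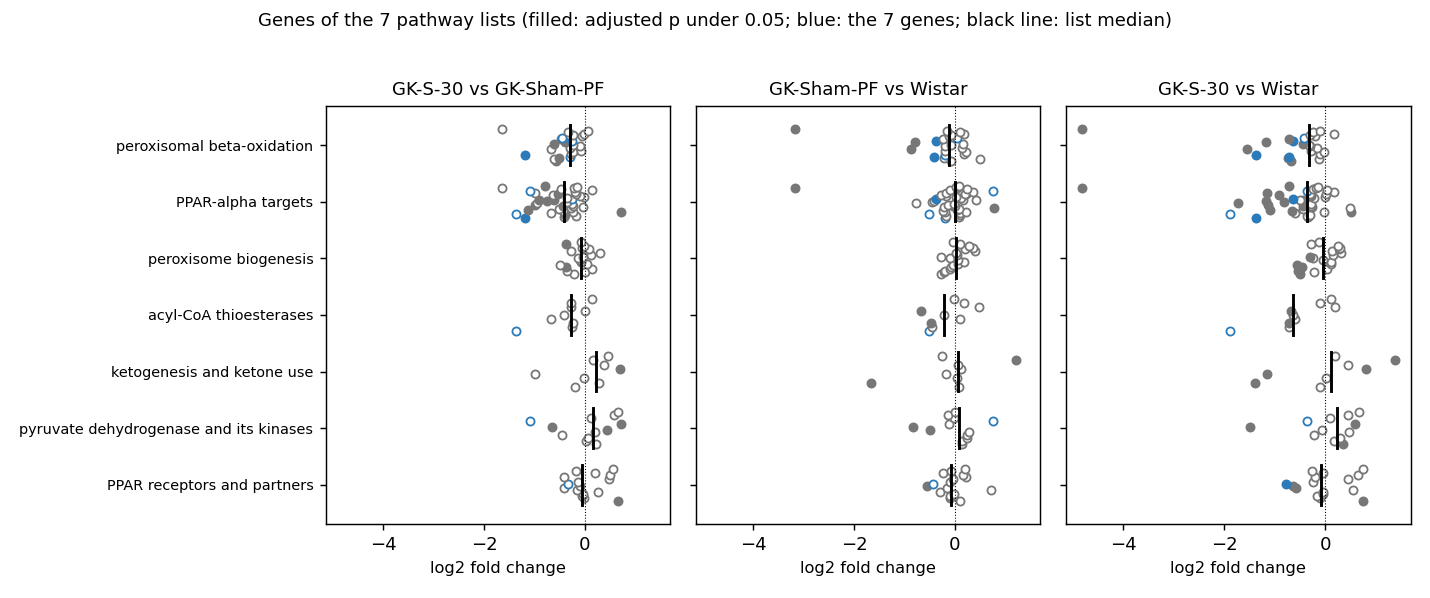
Log2 fold changes of the genes of the 7 pathway lists in the 3 pairs of groups. Each point is a gene, filled if it passed the adjusted p of 0.05 and blue for the 7 genes described here, and black lines are list medians. Peroxisomal beta-oxidation and PPAR-alpha targets lie mostly below 0 between the RYGB and sham groups, with medians of -0.30 and -0.42.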

How the data were processed

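Gene expression was measured in intestinal RNA of 15 rats with 1-dye Agilent arrays, 1 array per rat. The intensity files deposited by the authors hold the Feature Extraction (10.7) processed signal, from which local background was subtracted, with no scaling between arrays. The authors also deposited a matrix of log2 values, which they had quantile-normalized in GeneSpring and which was used as an alternative. Probe positions are those of the files (rn4).

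After control and outlier spots were dropped, each probe's spots were averaged and quantile-normalized as log2 values (limma 3.58.1, R 4.3.3). Values are relative, and the normalization rests on most genes being unchanged. A probe was tested if all arrays of 1 or more groups were well above background, and 1 limma model was fitted over all arrays without covariates, with Benjamini-Hochberg adjustment over 27892 probes at 0.05. The 75th percentile of the processed signal was 301.9 to 357.2 on 13 arrays, and 206.6 and 208.4 on Wistar replicate 3 and GK-Sham-PF replicate 5. Arrays had 66.7% to 74.8% of probes well above background, and the number of arrays limits the precision.

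Genes of a list were represented by their brightest tested probe. From each pathway list and pair, up to 4 genes with the smallest adjusted p were named, except that some genes are not reported here, and Ppard and Pparg were named after their values were seen. The genes and lists were chosen with earlier results of these data known. Probe names were updated with RefSeq (GRCr8), promoters were read from RefSeq, and motifs were found by exact match in Python (Biopython 1.88, matplotlib 3.10.9 for figures). The procedure was tested on simulated data. Each array is a separate rat per the labels. Replicate numbers did not pair the rats.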

Additional observations from a re-analysis of the deposited data

How the results depend on the processing

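All 9 differences between the RYGB and sham groups stayed below 0 under each alternative run. Of the 3 pairs, the number of probes that passed between the RYGB and sham groups (1) was 6 by the Tukey test of the 3 groups, 0 after Benjamini-Hochberg adjustment of it (Acaa1b lost, adjusted p = 0.107), and 2 without the 2 dimmest arrays, which was added after seeing the data. Leaving out 1 array at a time gave 1 to 2. From Wistar to GK-Sham-PF rats (2) it was 1 with 75th percentile scaling, 1 by adjusted Tukey p, 1 without the 2 dimmest arrays and 0 with slide as a fixed block, and leaving out 1 array gave 1 to 2. From Wistar to GK-S-30 rats (5) it was 0 with slide as a fixed block, and leaving out 1 array gave 4 to 6. With slide as a fixed block, none of the 8 calls stayed, although all kept their direction with larger SEs (from Wistar to GK-S-30 rats -0.57 for Ehhadh, -0.74 and -0.98 for the own and shared probes of Acaa1a, -2.44 for Acaa1b and -1.62 for Ppara), and the 1 probe that passed between the RYGB and sham groups was the spanning probe of Pdk4. Over all probes the calls were then 382, 416 and 454, and this fit compares groups mainly through the few arrays that share a slide. Without a slide term they were 1869, 2184 and 6352. With slide as a random block the estimated correlation was -0.0289, so that this fit was nearly the one without a block and does not test the effect of slide. The replicate block gave 1, 1 and 4 probes: the call of the own probe of Acaa1a between GK-Sham-PF and Wistar rats (adjusted p = 0.0593) and that of the shared probe against Wistar rats (0.0613) were lost. Same-numbered rats of 2 groups had correlations of -0.28 to 0.19 in their deviations from the group means, and 2, 0 and 1 of 10 arrays correlated best with their own number.

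Some differences that had not passed changed sign. From Wistar to GK-Sham-PF rats the shared probe of Acaa1a ranged from -0.235 (without Wistar replicate 3) to 0.0045 (without Wistar replicate 4) as single arrays were left out. Hsd17b4 was -0.0482 with slide as a fixed block, -0.0447 without Wistar replicate 3 and -0.0039 without GK-Sham-PF replicate 4, and reached 0.104 without GK-Sham-PF replicate 5. The spanning probe of Pdk4 was -0.0285 with slide as a fixed block. Acot1 ranged from -1.14 (without GK-Sham-PF replicate 5) to 0.0722 (without GK-Sham-PF replicate 2). From Wistar to GK-S-30 rats the downstream probe of Pdk4 ranged from -0.586 (without GK-S-30 replicate 3) to 0.0519 (without GK-S-30 replicate 1). The cause was not tested. Of the 47 calls of list genes with the smallest adjusted p in each list and pair, 8 stayed with slide as a fixed block and 40 with the replicate block. When single arrays were left out, 39 stayed throughout, and 8 were lost at least once, among them Pxmp2, Pdk2, Oxct1 and Pdk3 between the RYGB and sham groups, Slc27a2 from Wistar to GK-Sham-PF rats, and Dlat and Pdk3 from Wistar to GK-S-30 rats.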
